A study of Homo sapiens with 22 samples.

Results

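The genes described here are the keratins KRT7, KRT8, KRT18, KRT19, KRT17, KRT5 and KRT80, vimentin (VIM) and nestin (NES), taken by name in a study of the histone methyltransferase SETD2 in renal epithelial cells. They were listed by name and not by a threshold on any value, although earlier results of these data were known when the list was drawn up. Of these 9 genes, 8 had a row in a table of 36859 genes, and NES was not analysed here. Among the 8, KRT5 was at 0 in all 22 libraries, and the remaining 7 were among the 14585 genes that were tested. A gene was tested when its normalized count reached 10 in 2 or more libraries.

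Intermediate filaments are the toughest of the cytoskeletal fibres. Keratins build them in epithelia, always from 1 type I and 1 type II chain, so a cell needs both partners: KRT8 (type II) with KRT18 or KRT19 (type I) in simple epithelia such as the renal tubule, KRT7 (type II) with KRT19 in ducts and collecting tubules, and KRT5 with KRT14 in basal cells. Vimentin, a type III protein, forms filaments alone and is the usual filament of mesenchymal cells, and cultured epithelial cells commonly make it as well. KRT17 is best known from wounded and stressed epithelia, and KRT80 is a less studied type II keratin. A fall of keratins with a rise of vimentin is the textbook mark of an epithelial to mesenchymal transition (EMT).

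RPTEC, an hTERT-immortalized human renal proximal tubule epithelial line, was profiled by poly(A) RNA-seq in 11 groups of 2 libraries. The groups kept in 2% serum were WT, WT given TGF-β (10 ng/mL, 72 h), KO1 and KO2, which are SETD2 KO clones each grown from 1 CRISPR-edited cell with frameshifts in exon 3, and a line labelled KO2 rescue. In regular media with 10% serum were Rescue1 and Rescue2, single-colony clones of KO cells given FLAG-tagged full-length SETD2 by lentivirus under blasticidin, and bulk-selected WT cells transduced with an empty eGFP vector, SOX2, OCT2 or PRRX1 under puromycin. Clone and genotype therefore cannot be told apart within 1 line, and serum cannot be told apart from the effect of SETD2 between the rescue and KO clones, or from that of the vector between eGFP and WT cells. Nothing in the labels says that the 2 libraries of a group came from separate cultures, so p-values measure the spread between libraries, which may be technical.

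Values are normalized counts, which add up to between 11674491 and 16758645 per library. A change is a difference of mean log2(normalized count + 1), which understates the change of low genes. It is said to pass where limma's Benjamini-Hochberg adjusted p over the 14585 genes is under 0.05, and to be called where the log2 change also exceeds 1. A group with both libraries at 3 normalized counts or fewer is said to be at the floor.

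SETD2 had 1852 and 2061 normalized counts in the WT libraries, 1046 and 1130 in KO1, and 1050 and 1052 in KO2. Its counts were 10240 and 10369 in Rescue1, and 10445 and 9764 in Rescue2. Unedited eGFP cells had 3128 and 2947, above both WT libraries (log2 change 0.64, limma adjusted p = 7.6e-06), with serum and vector both different. SOX2, OCT2 and PRRX1 cells had 2702 to 2980. The libraries labelled KO2 rescue had 834 and 820, below both KO2 libraries, which goes against their label, and they are written as labelled KO2 rescue throughout. Of the renal markers, the nephron transcription factor PAX8 was lowest in treated cells (1634 and 1535), had 2322 and 3743 counts in WT libraries, and reached 6382 and 6561 in clone KO1 and 5056 and 5096 in clone KO2. It lay between 3142 and 6286 in the other libraries. PAX8 belongs to a list of 4 renal and general epithelial markers, and the summed rest of that list was highest in WT. In WT and the KO clones this rest was mostly EPCAM, an epithelial adhesion gene. Without PAX8, WT libraries summed to 3198 and 2981 counts, those of KO1 to 340 and 379, and those of KO2 to 1111 and 928. Treated cells reached 1682 and 1786 in this sum, and unedited eGFP cells 1314 and 1380. The part of these genes in the members' changes was not tested. The proximal tubule enzyme GGT1 was at 666 and 893 in WT, 1091 and 945 in KO2, and 727 and 827 in eGFP cells. In the rescue clones GGT1 was lower, at 225 and 285 in Rescue1 and 350 and 444 in Rescue2. Treated cells had 831 and 752 GGT1 counts, and KO1 had 711 and 1037. GGT1 is 1 of 6 listed proximal tubule markers, and the summed rest was not lower in the rescue clones. This rest was 61.6 and 184 in Rescue1, and 103 and 173 in Rescue2. WT libraries had 190 and 49.3, and eGFP libraries 66.2 and 219. It was above both WT libraries in treated cells (534 and 563), KO1 (427 and 635) and KO2 (489 and 236). The part of GGT1 and of this rest in the members' changes was not tested. LRP2, the megalin receptor that defines the proximal tubule in tissue, never exceeded the floor, and neither did UMOD or AQP2 of more distal segments. CALB1, from the same list of 5 distal nephron and collecting duct markers, was measured in every library, at 22.1 to 159 counts. It was at 43.7 and 67.9 in WT and highest in KO1, at 121 and 159.

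The WT libraries stood apart from each other in several genes. KRT7 had 787 normalized counts in WT replicate 1 and 78.02 in replicate 2, KRT17 had 24.7 and 4.47, and the collagen gene COL1A1 had 11919 and 532. In each of these genes WT replicate 1 lay nearer to the TGF-β libraries. VIM had 125588 in WT replicate 1 and 100632 in replicate 2. Changes of KRT7, KRT17 and VIM from WT are for this reason given with and without each WT library.

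The members sit in 3 places of GRCh38. KRT7 (ENSG00000135480) spans chr12:52232520-52252186, KRT80 (ENSG00000167767) chr12:52168996-52192014 and KRT5 (ENSG00000186081) chr12:52514575-52520530, all type II genes of the cluster on chromosome 12. At the end of that cluster KRT8 (ENSG00000170421, chr12:52897187-52949954, minus strand) overlaps by 1084 bases with the type I gene KRT18 (ENSG00000111057, chr12:52948871-52952906, plus strand). KRT19 (ENSG00000171345, chr17:41523617-41528308) and KRT17 (ENSG00000128422, chr17:41619442-41624842) belong to the type I cluster on chromosome 17, and VIM (ENSG00000026025) spans chr10:17228241-17237593.

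VIM was the most abundant member in all 22 libraries, at 72275 to 176108 normalized counts. Per kb of transcript, the median of the 11 group means was 47684 for VIM, 7508 for KRT19, 6161 for KRT8, 516 for KRT80, 145 for KRT18, 68.7 for KRT7 and 1.54 for KRT17. KRT8 and KRT19 thus made up nearly all keratin mRNA. KRT5 was at 0 in every library, where a count of 0 allows up to 3 counts. RPTEC so carried a simple epithelial keratin set over a large pool of vimentin mRNA in every condition.

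Across groups the members differed in how widely they ranged. Between the lowest and the highest group mean, KRT7 differed 52.8-fold, KRT8 5.82-fold, KRT80 3.20-fold, KRT19 2.82-fold, KRT18 2.49-fold and VIM 2.35-fold. TGF-β-treated cells had the highest mean of KRT7, KRT17, KRT80 and VIM. KO1 had the lowest mean of KRT8, KRT19, KRT80 and VIM, so the keratin pair and vimentin had their minimum in the same clone.

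**Figure D1:**
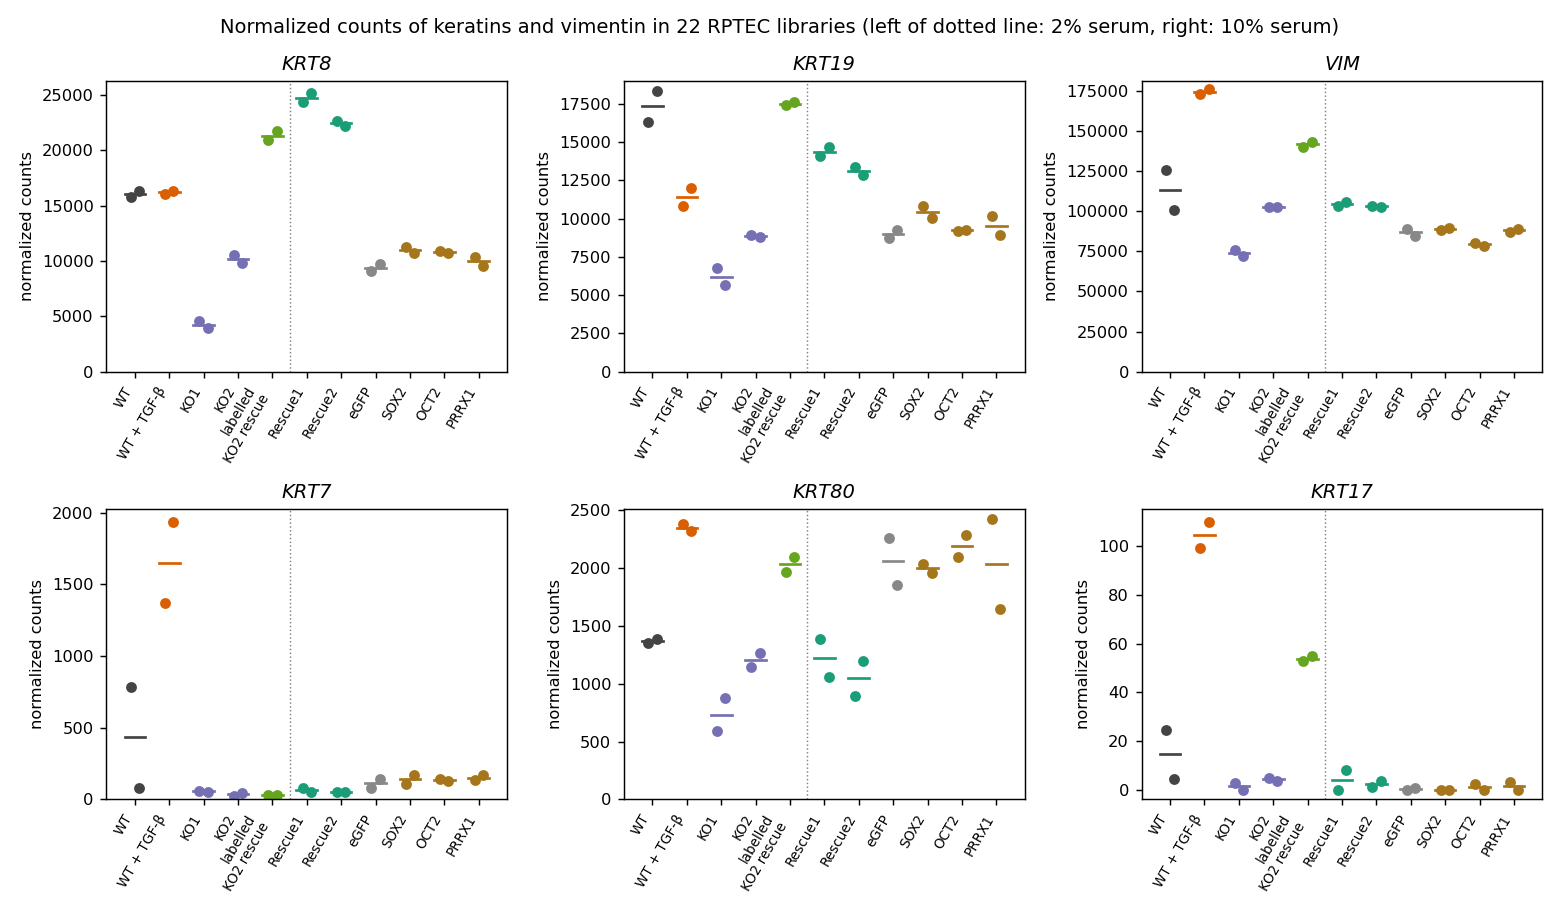
Each panel plots the normalized counts of 1 gene (y axis, linear) in the 11 groups (x axis). Points are the 2 libraries and the line is their mean, and groups left of the dotted line were grown in 2% serum. KRT8 and KRT19 are lowest in KO1, KRT7 and KRT17 are high with TGF-β, and the WT points for KRT7 lie at 787 and 78.02.

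TGF-β is the standard inducer of EMT in these cells, and the first comparison asked what it did to their filament genes. VIM rose, but so did the keratins KRT7 and KRT80, while KRT19 fell and KRT8 was at nearly the same level. In all, 3 of the 7 tested members passed higher and 1 lower, where 17.7% of all tested genes passed (8.5% higher and 9.22% lower), and 1 was called, where 7.84% of all genes were. The median log2 change of the 7 was 0.63, beside 0.00 over all genes tested.

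VIM had 125588 and 100632 normalized counts in WT and 172961 and 176108 with TGF-β. Both treated libraries lay above both WT libraries. Its log2 change was 0.63 (SE 0.07, adjusted p = 2.3e-05), and with quantile normalization, which fixes the values at the top ranks, it was 0.33 (adjusted p = 0.156). Leaving out WT replicate 1 gave 0.79 and leaving out replicate 2 gave 0.47, and both passed. Fibroblast markers were higher beside it: the summed counts of COL1A1, COL3A1, DCN, LUM, PDGFRA and PDGFRB were 12436 and 827 in WT and 47799 and 46361 with TGF-β, of which the collagen gene COL1A1 made up 46598 and 45007. Their part in the VIM change was not tested. KRT19, the small type I keratin without a tail domain, had 16349 and 18369 in WT and 10823 and 11994 with TGF-β. The groups did not overlap, and the log2 change was −0.61 (SE 0.09, adjusted p = 1.6e-04). With only the libraries compared in the fit, this KRT19 change did not pass (adjusted p = 0.115).

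KRT8, the type II partner, had 15741 and 16325 normalized counts in WT and 16061 and 16326 with TGF-β, with overlapping groups. The log2 change was 0.01 (SE 0.07, adjusted p = 0.945), and it turned to −0.22 (adjusted p = 0.0443) with each library brought to an equal total, where the median over all genes itself shifted to −0.20. KRT80 had 1355 and 1386 in WT and 2381 and 2319 after treatment. The treated libraries were both higher, by 0.78 on the log2 scale (SE 0.20, adjusted p = 0.0149), but with any 1 of the 4 libraries left out the adjusted p was 0.0591 to 0.0807, and with an equal total for each library it was 0.0742.

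KRT7 had the largest change of the members that passed. Its 1368 and 1933 normalized counts with TGF-β lay above both WT libraries, and the log2 change was 2.71 (SE 0.71, adjusted p = 0.0157). Without WT replicate 1 it was 4.36 (adjusted p = 1.09e-05), and without WT replicate 2 it was 1.05 (adjusted p = 0.169), so its size rests on which WT library is used. It also missed the threshold without either treated library (adjusted p = 0.052 and 0.101). KRT17 had 99.5 and 110 counts with TGF-β, above both WT libraries, with a log2 change of 3.15 that did not pass (SE 1.09, adjusted p = 0.0616). The change was 4.27 without WT replicate 1 (adjusted p = 0.0347) and 2.04 without WT replicate 2 (adjusted p = 0.398). Of 4 basal and squamous epithelial markers 2 had a row. TP63 was higher with TGF-β like KRT17, at 12.8 and 1.79 in WT and 64.8 and 74.0 with TGF-β. DSC3 was at 10.4 and 12.3 in WT and 4.86 and 3.51 with TGF-β. TP63 did not follow KRT17 elsewhere. In the libraries labelled KO2 rescue, where KRT17 had 52.8 and 55.0, TP63 was at 1.35 and 2.08 and DSC3 at 102 and 161. Their part in the KRT17 change was not tested.

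The KO clones were compared with WT to ask what the loss of SETD2 did to the same genes. In KO1 5 of the 7 tested members fell, and in KO2 3 fell. The epithelial pair KRT8 and KRT19 fell in both clones, as did KRT7, whereas VIM and KRT80 passed in KO1 and not in KO2, and both also differed between the clones when these were compared directly. In KO1 39.8% of all tested genes passed and 20.8% passed lower, and 3 members were called, where 25% of all genes were (2 with WT replicate 1 left out and 4 with replicate 2 left out). In KO2 28.9% passed and 13.7% passed lower, and 1 member was called, where 16.3% of all genes were. The members' median log2 change was −1.48 in KO1 and −0.77 in KO2, with that of all genes near 0 in both.

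KRT8 had 4558 and 3952 normalized counts in KO1 and 10534 and 9784 in KO2, all below the WT libraries. Against WT the KO1 change was −1.92 on the log2 scale (SE 0.07, adjusted p = 1.1e-11). That in KO2 was −0.66 (SE 0.07, adjusted p = 2.7e-06), under the fold threshold. KRT19 had 6756 and 5686 in KO1 and 8944 and 8829 in KO2, again all below WT. Its log2 changes were −1.48 and −0.96, with adjusted p of 3.1e-09 and 6.5e-07.

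Of the members that passed between the clones, KRT8 differed most. Tested directly, KO1 was below KO2 by a log2 change of −1.26 for KRT8 (adjusted p = 2.0e-08) and −0.52 for KRT19 (adjusted p = 7.4e-04). With only the 4 libraries compared in the fit the changes were the same, and neither passed (adjusted p = 0.0576 and 0.131). KRT80 differed by −0.74 (adjusted p = 0.0224; 0.165 without KO1 replicate 1, 0.0582 and 0.138 without either KO2 library) and VIM by −0.47 (adjusted p = 4.1e-04). With only the libraries compared, KRT80 and VIM did not pass either (adjusted p = 0.229 and 0.112). All 4 members were lower in KO1, where 16% of all tested genes passed between the clones and 9.56% passed lower. KRT8 alone was called, where 6.97% of all genes were.

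VIM, the mesenchymal filament gene, had 76085 and 72275 normalized counts in KO1 and 102935 and 102488 in KO2. Both KO1 libraries lay below WT, and the change was −0.60 on the log2 scale (SE 0.07, adjusted p = 8.7e-06). The KO2 libraries lay between the WT libraries, with a change of −0.13 (adjusted p = 0.205). Without WT replicate 1 the changes were −0.44 in KO1, which passed, and 0.03 in KO2, which did not (adjusted p = 0.689). Without WT replicate 2 they were −0.76 and −0.29, and both passed (adjusted p = 7.96e-09 and 0.000176). With an equal total for each library the KO1 change was −1.01 and the KO2 change −0.36 (adjusted p = 0.000193), where the median over all genes was −0.39 and −0.20. Among the fibroblast markers, DCN, the proteoglycan decorin, had 477 and 289 normalized counts in WT, 234809 and 221606 in KO1, and 98373 and 94978 in KO2. The other 5 markers summed to 11959 and 538 in WT, 1636 and 1756 in KO1, and 4173 and 3957 in KO2, so without DCN the KO libraries lay between the WT libraries. LUM and PDGFRA were above both WT libraries in all 4 KO libraries, COL3A1 was below them, and COL1A1 lay between them. The part of these genes in the keratin and VIM changes was not tested, and in bulk RNA fewer cells of a type and less RNA per cell cannot be told apart.

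KRT7 had 59.8 and 51.7 normalized counts in KO1 and 24.4 and 43.9 in KO2. All 4 libraries lay below both WT libraries, with log2 changes of −2.14 for KO1 (adjusted p = 0.0268) and −2.88 for KO2 (adjusted p = 0.00626). Without WT replicate 1 these were −0.48 (adjusted p = 0.459) and −1.23 (adjusted p = 0.062), so neither passed, and without WT replicate 2 they were −3.80 and −4.54 (adjusted p = 1.4e-05 and 4.13e-06). The call in KO1 was also lost without either KO1 library (adjusted p = 0.0635 and 0.103), and that in KO2 without KO2 replicate 1 (adjusted p = 0.0618). KRT80 had 591 and 876 in KO1, below the 1355 and 1386 of WT, with a log2 change of −0.93 (adjusted p = 0.00191). In KO2 its 1141 and 1264 gave −0.19 (adjusted p = 0.546). KRT17 was at 2.77 and 0 in KO1, at the floor, and at 4.86 and 3.46 in KO2, and it did not pass against WT in either clone (log2 changes −2.61 and −1.21, adjusted p = 0.0714 and 0.461). The KO1 change was −1.5 without WT replicate 1 (adjusted p = 0.415) and −3.73 without WT replicate 2 (adjusted p = 0.038), and it also passed without KO1 replicate 1 (adjusted p = 0.0412). That in KO2 was −0.10 and −2.33 without WT replicates 1 and 2 (adjusted p = 0.981 and 0.23).

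Set directly against TGF-β-treated cells, the KO clones had less of nearly every member. In both clones 6 of the 7 passed lower, where 36.9% of all genes passed for KO1 (19.3% lower) and 28.9% for KO2 (13.6% lower), and 5 and 2 were called, where 22.7% and 16.9% of all genes were. The 6 were VIM, KRT17, KRT7, KRT80, KRT8 and KRT19. VIM was lower than with TGF-β, with log2 changes of −1.23 for KO1 (adjusted p = 3.8e-09) and −0.76 for KO2 (adjusted p = 1.1e-06). KRT7 was lower too, with changes of −4.84 (adjusted p = 7.4e-05) and −5.59 (adjusted p = 2.6e-05), and these did not rest on the WT libraries. KRT17 was at least 34.9-fold lower in KO1, which was at the floor, and lower by −4.37 on the log2 scale in KO2 (adjusted p = 0.0068). With pseudogene rows added, the bound for KO1 does not apply. The KRT17 log2 change in KO1 was then −4.22 (adjusted p = 0.00999), in place of −5.77, and that in KO2 was −3.84 (adjusted p = 0.0213). Even for KRT19, which was lower than WT in all of these groups, the clones lay below TGF-β, by −0.88 in KO1 and −0.36 in KO2, the latter not passing without replicate 2 of the TGF-β group (adjusted p = 0.0648).

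The balance of the filament genes can be read from their shares of summed counts per kb, which are given as a description with no test. VIM made up 72.9% and 67.1% of the members' sum in WT and 81.3% and 80.5% in treated cells. KO1 libraries had 81.8% and 83.3%, and those of KO2 78.9% and 79.5%. The treated and KO libraries all lay above both WT libraries, although VIM counts themselves were higher than WT with TGF-β and lower in KO1. Unedited transduced cells (eGFP, SOX2, OCT2 and PRRX1) also lay above both WT libraries in this share, at 73.0% to 77.2%. In Rescue1 and Rescue2 the share was 66.2% to 68.3%, and in the libraries labelled KO2 rescue it was 72.4% and 72.2%. The lowest keratin share was 16.7%, in KO1, and the highest 33.8%, in Rescue1.

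Within the keratins, the ratio of KRT8 to KRT19 per kb was 0.750 and 0.692 in WT and 1.16 and 1.06 with TGF-β. It was 0.526 and 0.542 in KO1, the lowest of all libraries, and 0.918 and 0.863 in KO2, so the clones lay on opposite sides of WT. In the 4 rescue clone libraries it lay between 1.32 and 1.35, the highest of all. KRT7 made up 4.56% and 6.02% of keratin counts per kb with TGF-β, and at most 2.24% in any other library, which was WT replicate 1.

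**Figure D2:**
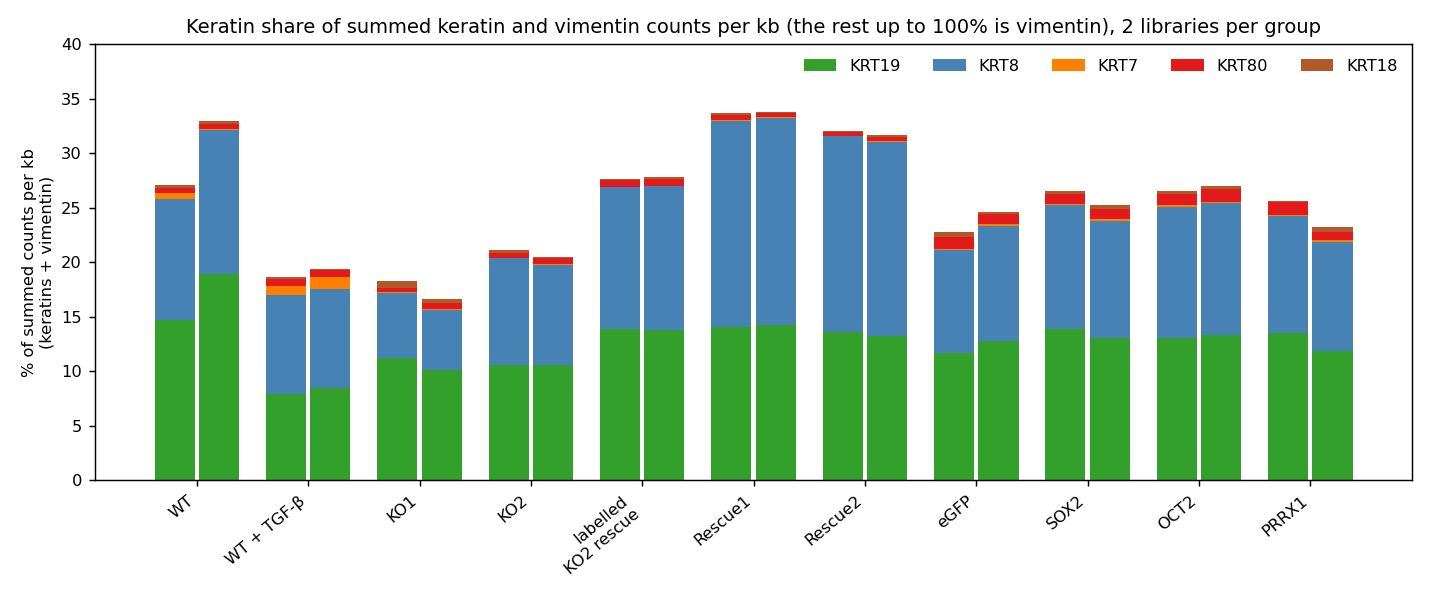
Bars give the share of each keratin (colours) in the summed counts per kb of the keratins and VIM (y axis, %), with 1 bar per library and 2 bars per group. Keratins take 18.7% and 19.5% with TGF-β and 16.7% to 33.8% over all libraries, and KRT7 is visible mainly in the TGF-β bars and 1 WT bar.

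Rescue clones were sequenced to ask which changes were undone when SETD2 was put back. KRT8 and KRT19 rose in both. Of the 7 tested members 2 passed higher against KO2 in each clone, where 29.8% of all genes passed for Rescue1 (13.6% higher) and 29.2% for Rescue2 (13.5% higher). One of them, KRT8, was called in each clone, where 16.1% and 15.3% of all genes were.

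KRT8 had 24336 and 25190 normalized counts in Rescue1 and 22685 and 22164 in Rescue2. These were the highest counts of KRT8 in the series, above the WT libraries as well as KO2. The log2 change from KO2 was 1.29 in Rescue1 (SE 0.07, adjusted p = 3.0e-09) and 1.14 in Rescue2 (adjusted p = 1.0e-08). KRT19 had 14100 and 14665 in Rescue1 and 13362 and 12831 in Rescue2, above KO2 and below both WT libraries. It rose by 0.69 (adjusted p = 2.1e-05) and 0.56 (adjusted p = 1.6e-04).

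VIM had 103220 and 105902 normalized counts in Rescue1 and 103618 and 102667 in Rescue2, next to the 102935 and 102488 of KO2. Its log2 change was 0.03 (SE 0.07, adjusted p = 0.838) and 0.01 (adjusted p = 0.974). With an equal total for each library it was 0.31 and 0.33 (adjusted p = 0.000684 and 0.000396), where the median over all genes was 0.23 and 0.28. KRT7 stayed low, at 76.5 and 50.3 in Rescue1 and 48.3 and 53.0 in Rescue2, and did not pass against KO2 (adjusted p = 0.385 and 0.58). Of the fibroblast markers, DCN had 363 to 611 counts in these libraries, against 98373 and 94978 in KO2, and the other 5 summed to 448 to 913, against 4173 and 3957.

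Because eGFP-transduced WT cells shared the 10% serum of the rescue clones, they give the comparison at equal serum. KRT8 and KRT19 were again higher in the rescue clones, and KRT80 was lower. In each clone 3 members passed higher (VIM, KRT8 and KRT19) and 1 lower (KRT80), where 26.2% of all genes passed for Rescue1 (13.2% higher, 13% lower) and 24% for Rescue2 (12.1% higher, 11.9% lower). KRT8 was higher by a log2 change of 1.40 in Rescue1 (adjusted p = 1.9e-09) and 1.26 in Rescue2 (adjusted p = 5.6e-09), and was the 1 member called in each, where 12.8% and 11.1% of all genes were. KRT19 was higher by 0.68 and 0.54, and VIM by 0.27 and 0.25. VIM did not pass with quantile normalization (adjusted p = 0.0982 and 0.103), or without Rescue1 replicate 2, either Rescue2 library or, in both comparisons, eGFP replicate 2 (adjusted p = 0.0751 to 0.129). KRT80 was lower by −0.76 (adjusted p = 0.0124) and −0.98 (adjusted p = 0.00249), the former not passing without Rescue1 replicate 2 or eGFP replicate 1 (adjusted p = 0.124 and 0.117). Its 897 to 1388 counts in the rescue clones did not overlap with the 2265 and 1852 of eGFP cells.

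Libraries labelled KO2 rescue, whose SETD2 counts were low and which were kept in 2% serum like KO2, also had more KRT8, KRT19 and KRT80 than KO2. KRT8 had 20896 and 21728 normalized counts, KRT19 17405 and 17655, KRT80 1970 and 2100, and VIM 140391 and 143334. All 4 rose, where 10.3% of all genes passed and 4.96% passed higher, and KRT8 alone was called, where 4.17% of all genes were. The log2 changes were 1.07 for KRT8 (adjusted p = 6.8e-08), 0.98 for KRT19 (adjusted p = 2.1e-06), 0.76 for KRT80 (adjusted p = 0.0267) and 0.47 for VIM (adjusted p = 5.3e-04). KRT80 did not pass with any 1 of the 4 libraries left out (adjusted p = 0.0742 to 0.159), and VIM did not with quantile normalization (log2 change 0.13, adjusted p = 0.684). KRT17 had 52.8 and 55.0 counts against 4.86 and 3.46 in KO2, and its change of 3.42 did not pass (adjusted p = 0.0622; 0.0263 with quantile normalization). KRT7 was at 31.6 and 30.9, within the range of KO2. DCN had 37572 and 35187 counts in these libraries, against 98373 and 94978 in KO2, and its part in the changes was not tested. A KRT8 count above WT was measured both in clones with high SETD2 mRNA and in a line with SETD2 mRNA below KO2. The rescue clones and this line also differed in serum, and the part of SETD2 in the KRT8 level was not tested.

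**Figure D3:**
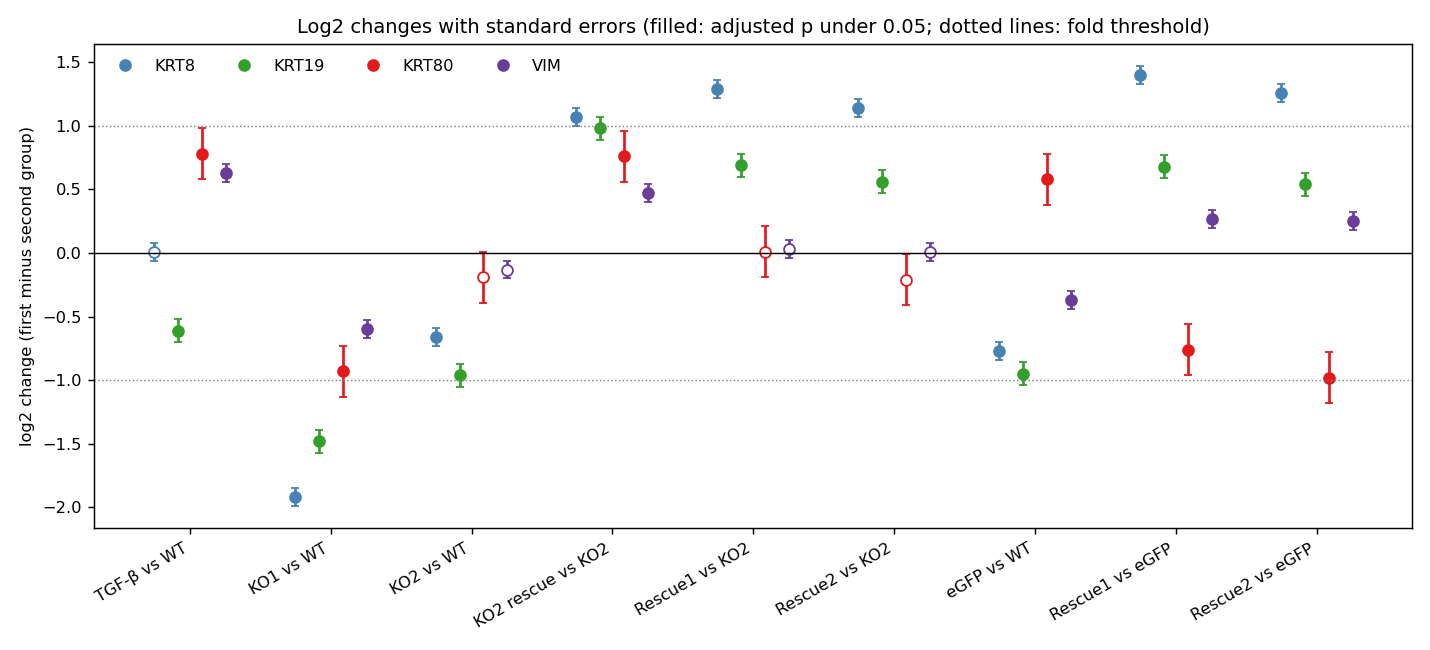
Points are log2 changes (first minus second group, y axis) of 4 members in 9 comparisons (x axis), and bars are standard errors from the fit. Filled points passed the adjusted test, and dotted lines mark the fold threshold. KRT8 spans −1.92 in KO1 to 1.40 in Rescue1 against eGFP, and VIM lies between −0.60 and 0.63.

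Cells in 10% serum with an eGFP vector differed from WT in 2% serum in the same genes. KRT8 (9055 and 9719 normalized counts) and KRT19 (8733 and 9268) were both below WT, by a log2 change of −0.77 (adjusted p = 9.5e-07) and −0.95 (adjusted p = 1.4e-06). In all 4 members passed lower and 1 higher, where 26.6% of all genes passed (13.1% higher and 13.5% lower), and 1 was called, where 12.7% of all genes were. VIM, at 89294 and 84437, was lower by −0.37 (adjusted p = 0.00128), and by −0.19 with quantile normalization (adjusted p = 0.394). Leaving out WT replicate 1 gave −0.21 and leaving out replicate 2 gave −0.53, and both passed. The called member was KRT17, at the floor in eGFP cells and so at least 4.86-fold below the WT mean, but at least 1.49-fold below WT replicate 2 (adjusted p = 0.0401). It was lower by −4.35 on the log2 scale without WT replicate 2 (adjusted p = 0.0265), and it did not pass without WT replicate 1 (adjusted p = 0.281) or without either eGFP library (adjusted p = 0.181 and 0.0835). KRT80 was higher by 0.58 (adjusted p = 0.0476) and lost this with an equal total for each library (adjusted p = 0.0603), with quantile normalization (0.0614) and with any 1 of the 4 libraries left out (0.0532 to 0.283). KRT7, at 79.0 and 144, did not pass (log2 change −1.21, adjusted p = 0.244), and the change was 0.45 without WT replicate 1 (adjusted p = 0.555) and −2.87 without WT replicate 2 (adjusted p = 0.000355). KRT8 and KRT19 were below WT in these cells, which were not edited at SETD2 but differed from WT in serum and vector together. The part of each in these changes was not tested. In the KO clones, kept in 2% serum like WT, the KRT8 change was −1.92 in KO1 and −0.66 in KO2, and the KRT19 change −1.48 and −0.96.

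WT cells with SOX2, OCT2 or PRRX1, transcription factors tested for whether they alone shift the cells, were compared with eGFP cells. By limma 0 of the 7 members passed in any of the 3, where 0.0206%, 0.0411% and 0.048% of all genes passed. At an unadjusted p under 0.05 there were 2 members with SOX2 (KRT8 and KRT19), 1 with OCT2 (KRT8) and 0 with PRRX1, where 6.76%, 7.03% and 4.61% of all genes were. Members' log2 changes lay between −0.33 and 0.35 with SOX2, −0.25 and 0.55 with OCT2, and −0.36 and 0.69 with PRRX1. KRT8 counts were 10695 to 11287 with SOX2 and 10721 to 10881 with OCT2, all above the eGFP libraries. VIM was at 80361 and 78518 with OCT2, below both eGFP libraries, and this did not pass (adjusted p = 0.796).

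Ordered by group means, KRT8 ran from Rescue1 over Rescue2 and the libraries labelled KO2 rescue to TGF-β and WT, then SOX2, OCT2, KO2, PRRX1 and eGFP, and last KO1. Libraries overlapped between TGF-β and WT, SOX2 and OCT2, KO2 and PRRX1, and PRRX1 and eGFP, and other neighbours did not overlap. KRT19 ran from the libraries labelled KO2 rescue and WT, which overlapped, over Rescue1, Rescue2 and TGF-β to the transduced cells and KO2, and KO1 was again last. All neighbours from TGF-β to KO2 overlapped in KRT19. KRT7 was highest with TGF-β and lowest in the libraries labelled KO2 rescue, which overlapped with KO2.

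KRT18, the partner of KRT8 in simple epithelia, did not pass in any of the 15 comparisons. Its counts lay between 61.9 and 388, and the log2 changes between −1.16 and 0.78, and its highest group mean was in KO1, where KRT8 was lowest. The ratio of KRT8 to KRT18 per kb ran from 9.32 in a KO1 library to 290 in a Rescue2 library, with a median of 47.4, so the partners were measured far from equal levels. KRT18 libraries of 1 group often disagreed: PRRX1 had 93.3 and 349, a log2 difference of 1.89 that exceeded that of 98.6% of the genes at 100 to 500 counts, and Rescue2 had 61.9 and 173. Of the 31-base words of the KRT18 transcript, 74.8% also occur in transcripts of other genes (71 genes), against 61.1% for KRT8, 41.1% for VIM, 39.8% for KRT17, 15.5% for KRT7, 11.4% for KRT19 and 1.5% for KRT80. Rows of KRT18 pseudogenes (65) summed to at most 41.3 counts in a library, and those of KRT8 (51) to 64.4 to 151. The library kit kept the strand, but the strand setting of the authors' Salmon run, which bears on the overlap of KRT8 and KRT18, is not given in the sources used here, nor is how it treated shared reads. Shared words were counted on both strands, so the shares above can include matches that a stranded count would leave out. For VIM, 28.8% of the words were shared with VIM-AS1. No gene with a row that shared words with VIM exceeded 997 counts in a library. Levels of KRT18, KRT8, VIM and KRT17 are uncertain for these reasons, by an amount that the shares do not measure. With pseudogene rows added to their gene, 1 of 49 named changes no longer passed, that of KRT17 in eGFP cells against WT (adjusted p = 0.116).

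Over the 11 group means, KRT8 and KRT19 had a Pearson r of 0.90, and KRT8 and KRT18 of −0.60. VIM had r of 0.65 with KRT8 and 0.64 with KRT19, both positive, and 0.94 with KRT17, which was at or near the floor in most groups. These are descriptions of 11 points that share media and parent cells. Among 2819 genes of sufficient level and spread, the pattern most like KRT8 was that of SELENON (r = 0.952), and those most like KRT19 were TUBA1B (0.960), an α-tubulin, and ADISSP (0.955). VIM was most like DPYSL3 (0.963) and ACTN1 (0.962), an α-actinin that crosslinks actin. KRT7 was most like SLC4A7 (0.951) and TUBA4A (0.945), KRT17 like PCBP4 (0.951) and PDLIM7 (0.948), KRT80 like CDH24 (0.956) and RAP1GAP (0.939), and KRT18 like PDZK1IP1 and RGPD6 (both 0.823).

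The other keratins, of which 37 of 48 listed had a row and 9 were tested, were few and mostly low. With TGF-β 2 were called higher, in KO1 2 higher and 2 lower, and in KO2 3 higher, where 7.84%, 25% and 16.3% of all genes were called, and the median log2 changes of the 9 were −0.04, 0.84 and 0.46, beside medians of 0 over all genes. KRT81, a hair keratin whose close paralogs make its level uncertain, had 893 and 997 normalized counts with TGF-β, beside 285 and 13.7 in WT, and 1.82 and 4.16 in KO1 and 16.6 and 13.1 in KO2. It thus resembled KRT7 in the gap between the WT libraries as well as in its direction with TGF-β (log2 change 3.87, adjusted p = 0.00659) and in KO1 (−4.09, adjusted p = 0.00178), while KO2 did not pass against WT (−2.04, adjusted p = 0.103). From WT replicate 1 alone the KRT81 differences were 1.73 for treated cells, −6.23 for KO1 and −4.18 for KO2, and from replicate 2 alone 6.01, −1.94 and 0.10. Unlike KRT7 it passed in the rescue clones against KO2 (3.17 and 3.65, adjusted p = 0.0136 and 0.00594), though not against eGFP cells at equal serum (−0.28 and 0.20, adjusted p = 0.878 and 0.92). KRT79 had 28.6 and 8.56 in WT and was called higher with TGF-β (2.10) and in KO1 and KO2 (1.65 and 1.57). From WT replicate 1 alone the log2 differences were 1.29, 0.83 and 0.76, and from replicate 2 alone 2.92, 2.46 and 2.39. KRT3, a corneal keratin, was at the floor in WT and had 10.6 and 9.60 in KO1 and 16.1 and 8.54 in KO2, at least 3.36-fold and at least 4.11-fold higher. KRT34 was lower in KO1 (−3.67, adjusted p = 0.0137) and at 0 in both eGFP libraries, and KRT10, of the epidermis, was higher in KO2 (1.03, adjusted p = 0.0302), by 0.51 from WT replicate 1 alone (169 counts) and by 1.55 from replicate 2 alone (81.4 counts). Of 4 tested among 10 other cytoplasmic filament genes, 3 passed higher in KO2 and 2 lower in KO1, where 28.9% and 39.8% of all genes passed. Against WT the lens filament gene BFSP1 alone was called. It was higher in KO2 (2.02, adjusted p = 0.040) and likewise in unedited eGFP cells (2.01, adjusted p = 0.0432), where 16.3% and 12.7% of all genes were called. In KO1 BFSP1 did not pass (0.99, adjusted p = 0.281). Other genes of this list were called only in comparisons without WT.

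Plakins are the linker proteins that tie keratin and vimentin filaments to junctions and to other fibres, and 6 of 7 listed were tested. With TGF-β 2 were called higher, in KO1 3 were called lower, and in KO2 2 lower, where 7.84%, 25% and 16.3% of all genes were called. The median log2 changes of the 6 were 0.55, −1.11 and −0.47, beside 0 over all genes. Desmoplakin (DSP), which anchors keratins at desmosomes, had 1693 and 1239 normalized counts in WT, 297 and 432 in KO1, and 491 and 648 in KO2. It fell in both clones, with log2 changes of −2.01 and −1.36 (adjusted p = 1.2e-05 and 6.5e-04), and it passed higher in Rescue1, Rescue2 and the libraries labelled KO2 rescue (0.94, 0.73 and 1.02). It was also called lower in unedited eGFP cells than in WT (−1.17, adjusted p = 0.00267). Against eGFP cells it was higher by 0.75 in Rescue1 (adjusted p = 0.0377) and by 0.54 in Rescue2, which did not pass (adjusted p = 0.139). Envoplakin (EVPL) fell in KO1 and KO2 (−2.40 and −2.02) and was lower still in the rescue clones, at 6.94 and 10.3 in Rescue1 and 1.73 and 5.51 in Rescue2 against 162 and 118 in KO2. Epiplakin (EPPK1), which binds keratins, had 343 and 27.7 in WT and 1306 and 1198 with TGF-β. At 1.59 and 0 it was at the floor in KO1, at least 61.8-fold below the WT mean but at least 9.23-fold below WT replicate 2. In KO2 EPPK1 did not pass against WT (−0.72, adjusted p = 0.57), with differences of −2.52 and 1.07 from WT replicates 1 and 2 alone. It was called lower in unedited eGFP cells than in WT (−3.34, adjusted p = 0.00653). DST, a linker with hemidesmosomal forms, was higher with TGF-β (1.41, adjusted p = 0.00239) and in both rescue clones against KO2 (1.21 and 1.08). It was also higher in eGFP cells than in WT (1.41, adjusted p = 0.00154), and at equal serum the rescue clones differed from eGFP cells by −0.13 and −0.26 (adjusted p = 0.794 and 0.563).

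Lamins form the filaments under the nuclear envelope, and of the 3 genes 2 passed lower in each of TGF-β, KO1 and KO2 against WT, where 9.22%, 20.8% and 13.7% of all genes passed lower. The median log2 changes of the 3 were −1.11, −0.78 and −0.90, beside 0 over all genes. LMNB1, lamin B1, had 585 and 638 normalized counts in WT. It was at 132 and 74.0 in treated cells, at 40.1 and 74.2 in KO1, and at 124 and 193 in KO2. The log2 changes were −2.62 for TGF-β (adjusted p = 4.8e-04), −3.46 for KO1 (adjusted p = 1.0e-05) and −1.97 for KO2 (adjusted p = 0.00224). In Rescue1 and Rescue2 it rose against KO2 by 1.56 (adjusted p = 0.0114) and 1.87 (adjusted p = 0.00368), while against eGFP cells at equal serum the differences were −0.10 and 0.20 (adjusted p = 0.908 and 0.795). In the libraries labelled KO2 rescue it had 318 and 116 and did not pass (adjusted p = 0.764). LMNA, which encodes lamins A and C, fell with TGF-β (−1.11, adjusted p = 8.2e-05) and also passed lower in both clones (−0.78 and −0.56). It was called lower in unedited eGFP cells than in WT as well (−1.16, adjusted p = 3.1e-05), and higher in Rescue1 and Rescue2 than in eGFP cells (1.13 and 1.29). These comparisons share the WT libraries.

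**Figure D4:**
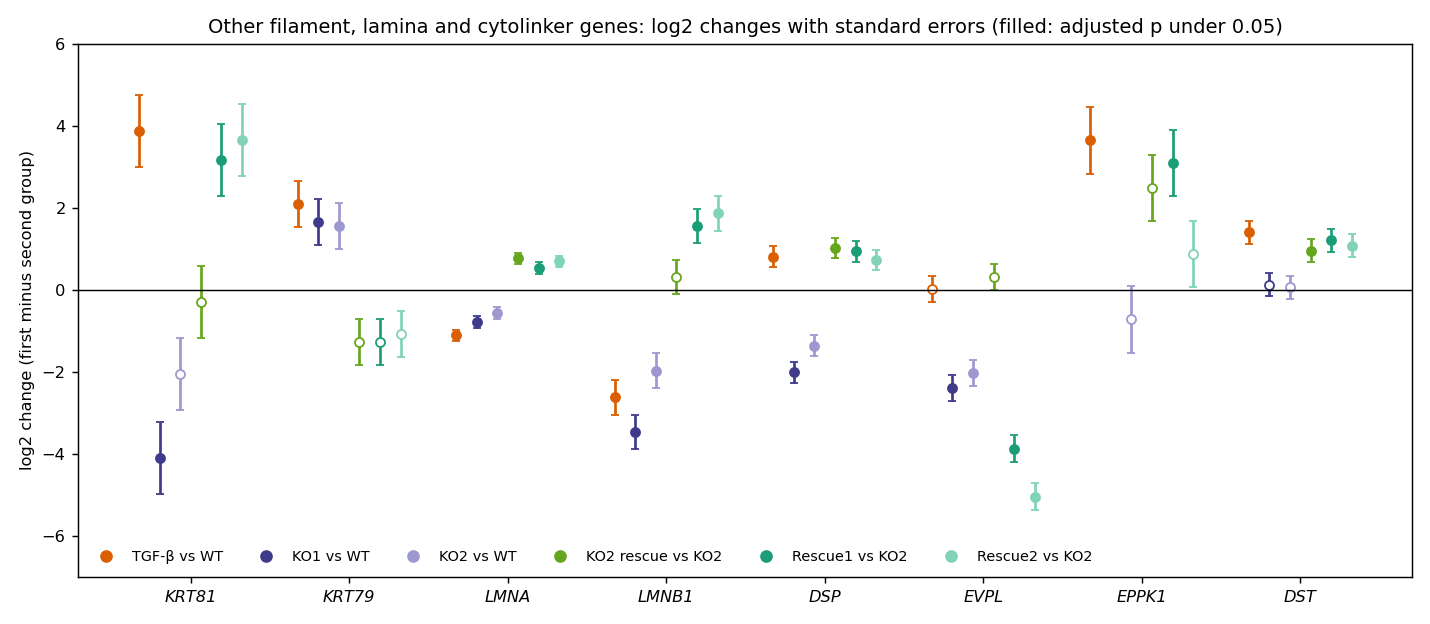
Points are log2 changes (first minus second group, y axis) with standard errors for 2 other keratins, 2 lamins and 4 plakins (x axis) in 6 comparisons (colours), filled where the adjusted test passed. Comparisons with a group at the floor are left out. LMNB1 is lower with TGF-β and in both KO clones, and DSP is lower in the KO clones and higher with TGF-β.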

How the data were processed

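The authors quantified paired-end reads with Salmon 1.9.0 against cDNA of Ensembl release 94 (GRCh38), followed by DESeq2 1.26.0, per the labels and the study's methods. They deposited log2 values for 36859 genes in 22 libraries (lowest 11.32, highest 21.28), which have the form of variance-stabilized normalized counts, a step not given in the sources used here. The plan assumed linear normalized counts, so the values were converted back by inverting the transformation, and 11.32 became 0. About 7700000 to 18800000 reads stand behind a library, approximated from the smallest steps between values, and bounds against the floor of 3 counts cover counting error only.

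GENCODE release 44 (GRCh38) gave symbols to 33878 genes. limma 3.58.1 (R 4.3.3, variance trend on expression) was fitted to all 22 libraries, with group means as its only terms, after a pseudocount of 1. Library groups came from the labels. The 15 comparisons were each adjusted over 14585 genes, and the fit was tested on simulated data. Members, lists and tests were chosen with earlier results of these data known. Other genes were named where called against WT, at most 6 per list by size, plus SETD2 and the 2 genes most like each member in group means (mean of at least 100 counts, SD of group means of at least 0.5). Alternatives were other pseudocounts, filters and normalizations, summed pseudogene rows, fewer libraries and a replicate block. A fit of the deposited log2 values was added after the data were seen. Of the genes most like KRT8, one is not reported here.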

Additional observations from a re-analysis of the deposited data

Results flagged for a closer look

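KRT8 was flagged because the KO clones differed in it by a test of the difference itself. Against WT the log2 changes were −1.92 (KO1) and −0.66 (KO2), and the difference between the clones was −1.26 (SE 0.07, limma adjusted p = 2.0e-08), with both KO1 libraries below both KO2 libraries. With only these 4 libraries in the fit the change of −1.26 did not pass (adjusted p = 0.0576). Each clone was grown from 1 cell, so clone and genotype cannot be told apart.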

How the results depend on the processing

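The number of members called was 1 with TGF-β, 3 in KO1, 1 in KO2, 1 in KO1 against KO2, 5 and 2 in KO1 and KO2 against TGF-β, and 1 in each of Rescue1 and Rescue2 against KO2 and eGFP, the libraries labelled KO2 rescue against KO2, and eGFP against WT. With TGF-β it was 2 with a pseudocount of 5 and 0 with no filter or with only the libraries compared, and 0 to 2 with each library left out. With an equal total for each library it was 5 in KO1, 6 in KO1 against TGF-β, 2 in KO2 and 2 in the libraries labelled KO2 rescue. With quantile normalization it was 2 in KO2, 2 in the libraries labelled KO2 rescue and 2 in eGFP cells. With only the libraries compared it was 2 in KO1 (KRT8 and KRT19, without KRT7), 0 in KO2, 0 between the clones, 2 in the libraries labelled KO2 rescue and 0 in eGFP cells. A mean of at least 50 normalized counts left 1 in KO2 against TGF-β and 0 in eGFP cells, where a pseudocount of 0.5, no filter and summed pseudogene rows also gave 0. With a pseudocount of 5 it was 2 in the libraries labelled KO2 rescue. On the deposited log2 values, whose scale compresses folds by construction, it was 2 in KO1 against TGF-β and 0 with TGF-β, in KO2, between the clones, in KO2 against TGF-β, in Rescue2 against KO2 and against eGFP, in the libraries labelled KO2 rescue and in eGFP cells. With each library left out it was 2 to 4 in KO1, 0 to 1 in KO2, 5 to 6 and 2 to 3 in KO1 and KO2 against TGF-β, 1 to 2 between the clones, 1 to 2 in Rescue2 against eGFP and 0 to 2 in eGFP cells. A lone library left in a group is assumed to vary like the others.

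Of 583 single-gene values under other settings 546 kept their call and direction, 23 lost a call, 12 gained one and 2 reversed, and of 236 with each library left out these were 209, 11, 12 and 4. Of 49 named changes that passed, 19 did not with only the libraries compared, KRT8 and VIM between the clones and VIM with TGF-β and in KO1 among them, and 10 did not with no filter. KRT8 with TGF-β reversed to −0.09 with quantile normalization and to −0.22 with an equal total. With each library left out, the log2 change ran from −0.01 to 0.04 for KRT8 with TGF-β, −2.87 to 0.45 for KRT7 in eGFP cells, −0.29 to 0.03 for VIM in KO2 and 0.00 to 0.01 for VIM in Rescue2 against KO2. Beyond what is said here, the cause was not tested. Deviations of libraries with the same number correlated by −0.08 to 0.05 over 55 pairs of groups, so the numbers do not pair the samples, and with the replicate block no call of a member changed (1 with TGF-β, 3 in KO1, 1 in KO2), and 1 of the 49 passes was lost, KRT80 in eGFP cells (adjusted p = 0.0591). Depth limits KRT17, KRT3 and KRT34, which were near the floor in several groups.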

Other observations

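Epithelial adhesion genes did not all follow KRT8 in the rescue clones. EPCAM, an epithelial adhesion molecule, had 3050 and 2764 normalized counts in WT, and 296 and 218 in KO1 and 901 and 838 in KO2, below WT like KRT8. In the rescue clones, where KRT8 was at its highest, EPCAM had 438 and 447 (Rescue1) and 688 and 691 (Rescue2), below both KO2 libraries. CDH1, E-cadherin, was at 25.5 and 47.5 in WT and at no more than 3.23 in any library of KO1, KO2, the rescue clones or the line labelled KO2 rescue. The desmosomal cadherin DSC3, whose junctions anchor keratins through DSP, was high in 1 rescue clone, at 704 and 653 in Rescue1 against 7.45 and 1.72 in Rescue2. It had 102 and 161 in the line labelled KO2 rescue and at most 43.2 in every other library.

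STMN2, a neuronal tubulin-binding gene, had 60.9 to 117 counts in KO1, 53.0 and 60.5 in KO2 and 69.7 and 136 in the line labelled KO2 rescue, and was at 0 in all other libraries. Of the other neural markers SOX1, DCX, ELAVL3 and ELAVL4, none exceeded 3 counts in any library. These genes were singled out from the marker lists after their values were seen, and no test was run on them here.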
